A study of Drosophila melanogaster with 2 samples.

Results

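Sugar and amino acid uptake in the adult fly midgut was examined through 8 transporter genes chosen by name: Glut1, Tret1-1, sut1 and sut2 for sugars, and path, slif, mnd and JhI-21 for amino acids. All 8 were among the 9607 genes of the deposited expression table. They were described across the 10 cell classes of the authors' annotation and across 2 ages. Midgut epithelial cells came from Canton S (wild type) female Drosophila melanogaster adults, 1 day old or 3 days old, and went into droplet-based single-cell RNA sequencing. Transcripts were counted by unique molecular identifiers (UMIs), short tags added before amplification so that copies of 1 molecule count once. There was 1 library per age, so no difference between ages has a replicate check or a p-value.

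Both libraries were wild type, with no transgene, sort or treatment given in the labels. The day 1 library held 2711 cells with 86114751 UMIs and the day 3 library 1473 cells with 58700717 UMIs, at a median of 25935 and 32121 UMIs per cell. The libraries had 1 cell barcode in common. Progenitor classes were ISC1 and ISC2 (annotated intestinal stem cells) and EB1, EB2 and EB3 (annotated enteroblasts, the precursors between stem cell and mature cell). The hormone-secreting enteroendocrine classes were AstC+EE and Tk+EE, and the absorptive enterocyte classes were apEC and mEC. Summed markers followed these names for progenitors and enterocytes taken as groups. The 6 progenitor markers summed to 28.2 and 30.3 UMIs per 10000 UMIs in progenitors at day 1 and day 3, against 0.810 and 0.711 in enterocytes. The 9 enterocyte markers in the table summed to 998 and 872 in enterocytes against 5.71 and 2.19 in progenitors. EB2 had the lowest progenitor marker sum of the progenitor classes, 10.1 and 11.2. That was below AstC+EE (17.0 and 18.6) and Tk+EE (12.4 and 12.3). The 11 enteroendocrine markers summed to 478 and 395 in AstC+EE and 2055 and 1834 in Tk+EE, against 0.454 and 0.619 in progenitors. The 4 markers of middle midgut enterocytes and copper cells summed to 56.7 and 57.4 in mEC against 3.27 and 5.95 in apEC. Most of the mEC sum was Vha100-4, at 54.0 and 55.7 against 0.0348 and 0 in apEC. lab (0.735 and 0.515 against 0 and 0) and dve (0.315 and 0.147 against 0 and 0.0496) were low but higher in mEC. Ctr1B went the other way, with 1.68 and 1.03 in mEC and 3.23 and 5.90 in apEC. The class named EC-like went against its name. Its progenitor markers summed to 32.9 and 31.8 and its enterocyte markers to 13.6 and 4.11, so it is described beside the progenitors here. Within that class, 81 day 1 cells and 0 day 3 cells lay in the deposited cluster 6.

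Sugar transporters of the SLC2 (GLUT) family move hexoses or trehalose through the membrane by facilitated diffusion. Trehalose, a disaccharide of glucose, is the main circulating sugar of insects, and Tret1-1 is a trehalose transporter. Amino acid transporters fall into several families: path (pathetic) belongs to the SLC36 proton-assisted family and is linked in flies to TOR signalling and tissue growth, slif (slimfast) is a cationic amino acid transporter known from the fat body nutrient response, and mnd (minidiscs) and JhI-21 are light chains of the heteromeric type that carries leucine and other neutral amino acids. Light chains of that type work with a heavy chain, which CD98hc encodes in the fly.

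The genes lie on 3 chromosome arms of the BDGP6 assembly. On arm 3L, Glut1 spans 914074 to 993788 on the plus strand, path 9494555 to 9505328 on the minus strand, mnd 14985100 to 14991667 on the plus strand and slif 22881045 to 22893821 on the plus strand. JhI-21 spans 12051755 to 12056042 of arm 2L on the minus strand. Tret1-1, sut1 and sut2 lie on arm 2R, where sut2 starts 244 bp after the end of sut1 on the same strand. Tret1-1 overlaps Roc2, sut1 overlaps slv and JhI-21 overlaps PLCXD, each on the opposite strand and each also in the table, and whether the counting used strand was not given in the sources used here.

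The deposited values are depth-corrected, so UMI counts were rebuilt from them in the 2092 cells with at most the median depth of 28085.5 UMIs. A level is the summed UMIs of a gene per 10000 UMIs of the cells of a class and library, with an exact Poisson 95% interval in brackets that covers counting error only. For all 4184 cells, deeper ones included, the correction fitted in the shallower cells gives a lowest and a highest level over equally good fits. These limits carry no counting error and assume that the fit holds in deeper cells, which could not be checked. They were added after the data had been seen. The classes were made by the authors from clustering of the same expression data, so levels of a class against another are descriptions without a test. In those 2092 cells the members had 8 UMIs (Glut1), 1639 (Tret1-1), 304 (sut1), 75 (sut2), 18034 (path), 39 (slif), 515 (mnd) and 1245 (JhI-21), which sets how finely each can be followed.

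**Figure D1:**
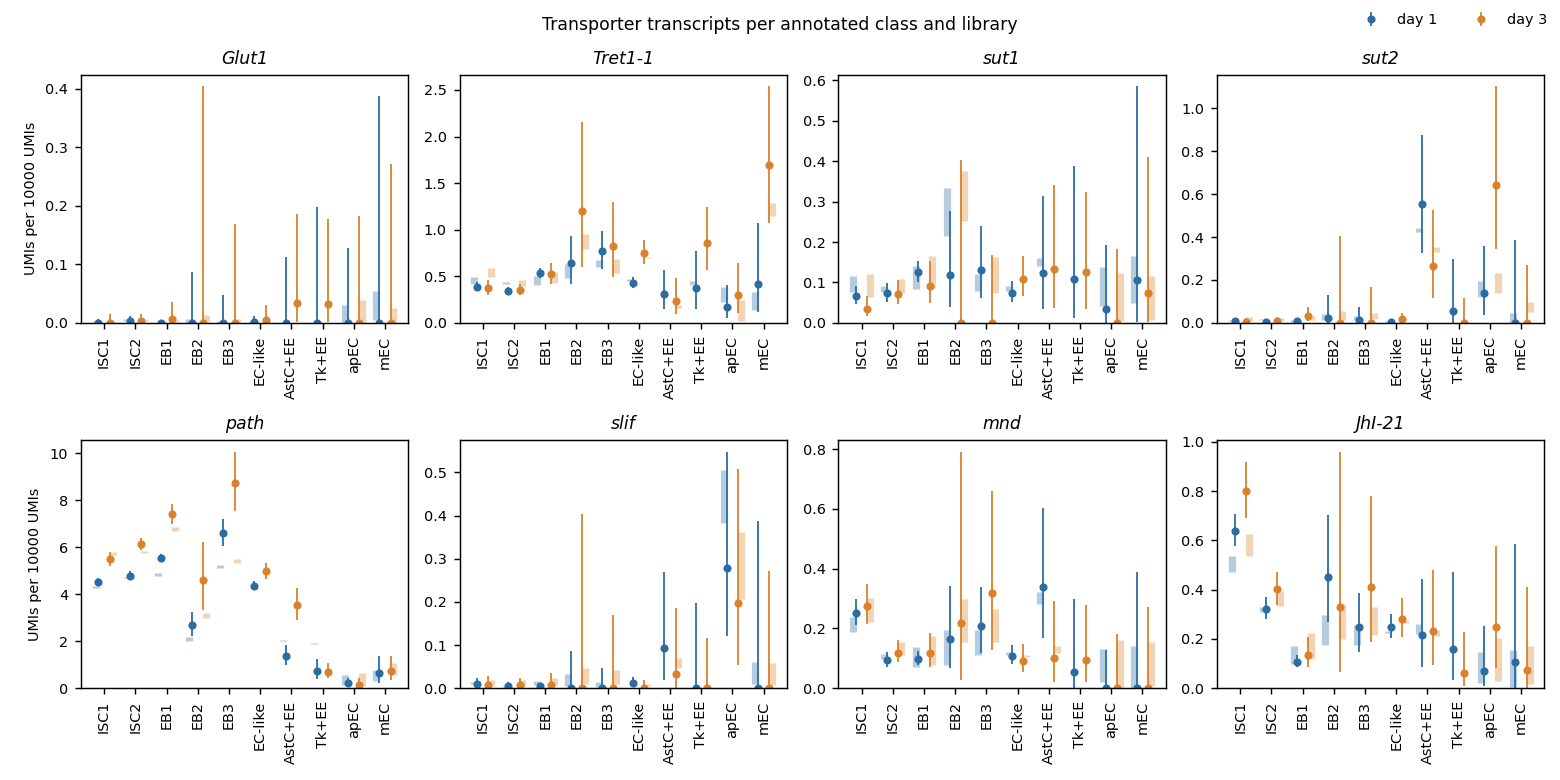
Level of each of the 8 transporters (UMIs per 10000 UMIs, each panel with its own axis) in the 10 annotated classes at day 1 (blue) and day 3 (orange). Points are levels in cells up to the median depth with 95% Poisson intervals. Pale bars span the lowest to the highest level for all cells over equally good fits, assuming that the fit holds in deeper cells. In these panels path is high in progenitors and EC-like cells and low in Tk+EE, apEC and mEC cells, whereas slif stands highest in apEC.

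Tret1-1 was found in every class in both libraries. In the progenitors the day 1 level was 0.444 [0.415 to 0.474] and the day 3 level 0.415 [0.372 to 0.463]. Among the enteroblast classes it was 0.767 and 0.823 in EB3 and 0.532 and 0.521 in EB1, against 0.389 and 0.374 in ISC1 and 0.340 and 0.355 in ISC2. The EB3 level was thus 1.97 [1.45 to 2.64] and 2.20 [1.25 to 3.67] times that of ISC1 at day 1 and day 3. Over all cells the limits were 0.605 to 0.673 and 0.537 to 0.688 in EB3 against 0.417 to 0.490 and 0.492 to 0.591 in ISC1, so the classes overlap at day 3 once deep cells are counted. The EB2 levels were 0.639 [0.421 to 0.930] and 1.20 [0.601 to 2.16], from 24 and 6 shallow cells; all 204 and 102 EB2 cells gave 0.485 to 0.637 and 0.797 to 0.952.

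The mature classes differed in Tret1-1 among themselves and between the libraries. In mEC its levels were 0.420 [0.114 to 1.08] and 1.69 [1.07 to 2.54], on 4 and 23 UMIs in 8 and 11 cells. Of the 23 UMIs, 12 came from 1 cell. Over all mEC cells the limits were 0.135 to 0.330 and 1.14 to 1.29. In apEC the level was 0.174 and 0.297 on 5 and 6 UMIs. Tk+EE had 0.376 [0.151 to 0.775] and 0.857 [0.565 to 1.25], whereas AstC+EE had 0.307 [0.147 to 0.564] and 0.233 [0.0937 to 0.480]. By mean level the order ran mEC, EB2, EB3, Tk+EE, EC-like, EB1, ISC1, ISC2, AstC+EE and apEC, and the first 6 classes overlapped their neighbours over the 2 libraries.

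sut1, a sugar transporter family gene named for sugar transport, was low throughout. Its level was 0.0926 [0.0797 to 0.107] and 0.0613 [0.0454 to 0.0811] in progenitors, with 0.125 and 0.0911 in EB1 and 0.0670 and 0.0354 in ISC1. EB1 had 1.87 [1.26 to 2.81] and 2.57 [1.04 to 6.74] times the ISC1 level, but the limits over all cells were 0.0830 to 0.141 and 0.0872 to 0.167 in EB1 against 0.0755 to 0.115 and 0.0633 to 0.121 in ISC1 and overlapped. In EB2 the limits over all cells were 0.215 to 0.334 and 0.252 to 0.377, above those of every other class in the same library. That excess could not be seen in the shallow EB2 cells, which gave 5 UMIs in 24 cells at day 1 and 0 in 6 at day 3, where 0 UMIs allow a level of up to 0.404. Enterocytes gave 2 and 1 UMIs.

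sut2, the neighbour of sut1, differed from it in where it was found. AstC+EE held 0.552 [0.327 to 0.873] on 18 UMIs at day 1 and 0.266 [0.115 to 0.525] on 8 UMIs at day 3, and apEC held 0.139 [0.0379 to 0.356] on 4 UMIs and 0.644 [0.343 to 1.10] on 13. In the progenitors it was at 0.00755 and 0.0125. The AstC+EE level was 73.1 [34.8 to 156] and 21.3 [7.30 to 59.9] times the progenitor level, and the apEC level 18.4 [4.45 to 57.8] and 51.5 [20.9 to 131] times. Over all cells AstC+EE kept 0.424 to 0.444 and 0.331 to 0.355, and apEC 0.122 to 0.194 and 0.139 to 0.231. Both therefore stood above the progenitor limits of 0.00830 to 0.0187 and 0.0137 to 0.0343, while the apEC level at day 3 was lower when deep cells were included. The other enteroendocrine class, Tk+EE, had 1 and 0 UMIs of sut2, and mEC 0 in both libraries.

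Glut1, a glucose transporter of the GLUT family, gave 8 UMIs in 8 of the 2092 cells. No class held more than 2 UMIs in a library, so every class stood at or under the floor of 3 counts and no order of classes can be read.

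path was higher in progenitors than in enterocytes. Progenitors held 5.0 [4.91 to 5.10] at day 1 and 6.23 [6.06 to 6.41] at day 3, enteroendocrine cells 1.15 [0.877 to 1.49] and 2.08 [1.74 to 2.47], and enterocytes 0.313 [0.162 to 0.547] and 0.385 [0.205 to 0.658]. The progenitor level was 16.0 [9.14 to 30.9] and 16.2 [9.46 to 30.4] times that of enterocytes. Over all cells, the limits were 4.26 to 4.37 and 5.66 to 5.81 in progenitors against 0.227 to 0.662 and 0.238 to 0.757 in enterocytes, so the groups stayed apart in both libraries.

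Within the progenitors path ran from 6.59 and 8.73 in EB3 through 5.55 and 7.40 in EB1, 4.80 and 6.14 in ISC2 and 4.51 and 5.50 in ISC1 to 2.70 and 4.60 in EB2, and neighbours in this order overlapped over the 2 libraries. The low position of EB2 held in each library: EB1 had 2.06 [1.71 to 2.50] and 1.61 [1.18 to 2.24] times its level. Over all cells EB2 lay at 1.99 to 2.18 and 3.00 to 3.22, below the other 4 progenitor classes in the same library and, at day 3, also below the 3.66 to 3.69 of the enteroendocrine class AstC+EE. The top position of EB3 did not hold over all cells, where EB3 had 5.12 to 5.24 and 5.31 to 5.50 and EB1 had 4.78 to 4.90 and 6.69 to 6.85. EC-like cells, with 4.36 [4.17 to 4.56] and 4.98 [4.67 to 5.31], sat next to ISC1.

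Most single cells showed the same division. With each cell thinned to 4000 UMIs, 79.4% [76.8 to 81.8, exact binomial] of 1034 progenitor cells at day 1 and 86.0% [82.2 to 89.2] of 406 at day 3 kept a path UMI, against 10.7% [2.27 to 28.2] of 28 and 22.2% [8.62 to 42.3] of 27 enterocytes. At their own depth (medians of 19840 and 20374 UMIs in progenitors and 11724 and 10461 in enterocytes) the shares were 98.1% and 99.0% against 24.1% and 40.7%. Thinning left out 1 cell of each of these groups, other than the day 3 enterocytes, where 0 were left out. Path in enterocytes came to 6.26% and 6.18% of its progenitor level, and the progenitor marker esg, a stem cell transcription factor, came to 1.83% and 0.489% of its own. The progenitor marker hdc came to 3.23% and 3.89%. The part of free RNA in the enterocyte values was not tested.

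**Figure D2:**
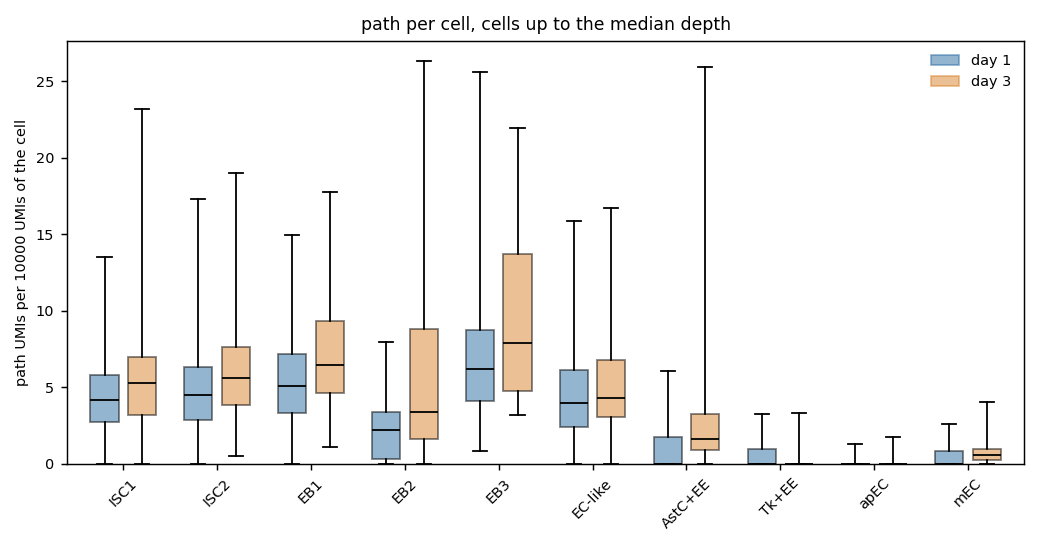
UMIs of path per 10000 UMIs of each cell (vertical axis) for cells no deeper than the median, by annotated class (horizontal axis) at day 1 (blue) and day 3 (orange). Boxes span the quartiles with the median as a line and whiskers reach the lowest and highest cell; the medians are 4.19 and 5.25 in ISC1, 0 and 1.61 in AstC+EE and 0 and 0 in apEC.

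The enteroendocrine classes did not carry path alike. AstC+EE had 1.38 [1.01 to 1.85] at day 1 and 3.53 [2.89 to 4.27] at day 3, and Tk+EE 0.752 [0.411 to 1.26] and 0.698 [0.438 to 1.06], so AstC+EE had 1.84 [0.990 to 3.62] and 5.05 [3.17 to 8.41] times the Tk+EE level. At day 3, 34 of the 106 AstC+EE UMIs came from 1 cell, yet the median cell held 1.61 per 10000 against 0 at day 1. In Tk+EE at day 1, the only cell above the median depth carried at least 28 path UMIs by the same fit. With it the day 1 limits rose to 1.90 to 1.94, next to 2.02 to 2.06 in AstC+EE, so the classes differed little at day 1 over all cells. Both classes held progenitor markers, whose 6 genes summed to 17.0 and 18.6 in AstC+EE and to 12.4 and 12.3 in Tk+EE. Among those, Dl stood at 4.05 and 4.83 in AstC+EE against 0 and 0.0317 in Tk+EE. The marker esg went the other way, at 2.15 and 4.10 against 7.41 and 6.70. N, Sox21a, klu and hdc were higher in AstC+EE than in Tk+EE in both libraries. The part of these markers in the path level was not tested.

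JhI-21 was highest in ISC1, at 0.640 [0.576 to 0.709] and 0.799 [0.693 to 0.916]. ISC2 had 0.323 and 0.402, and EB1 had 0.108 [0.0848 to 0.135] and 0.137 [0.0846 to 0.209]. The ISC1 level was 5.94 [4.62 to 7.72] and 5.84 [3.72 to 9.65] times that of EB1 and 1.98 [1.66 to 2.37] and 1.99 [1.60 to 2.47] times that of ISC2. Over all cells ISC1, with 0.474 to 0.538 and 0.535 to 0.624, stayed above every other class in both libraries. EB2, EB3, EC-like and AstC+EE lay between 0.215 and 0.450 in both libraries and were not set apart by their intervals. Enterocytes had 3 and 6 UMIs, a level of 0.0783 [0.0162 to 0.229] and 0.178 [0.0652 to 0.387].

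mnd, the other light chain gene, was likewise higher in ISC1 than in ISC2 or EB1. ISC1 held 0.252 [0.212 to 0.297] and 0.275 [0.215 to 0.348], ISC2 0.0928 and 0.119, and EB1 0.0992 and 0.117. The ratios were 2.72 [1.98 to 3.77] and 2.31 [1.56 to 3.46] to ISC2 and 2.54 [1.89 to 3.44] and 2.35 [1.38 to 4.19] to EB1. EB3, with 0.208 and 0.320, could not be told apart from ISC1. AstC+EE had 0.338 [0.169 to 0.604] on 11 UMIs at day 1 and 0.0999 [0.0206 to 0.292] on 3 at day 3. Enterocytes had 0 UMIs of mnd in 29 and 27 cells, so the progenitor level was at least 1.87-fold and 1.97-fold higher, taking 3 counts per library for 0. Over all cells the enterocyte limits of 0.0101 to 0.136 and 0.00248 to 0.159 reached into those of progenitors, at 0.101 to 0.167 and 0.138 to 0.231, so the difference is not settled for deep cells.

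slif was found mainly in apEC, with 0.278 [0.120 to 0.548] on 8 UMIs and 0.198 [0.0540 to 0.508] on 4. Progenitors held 0.00604 and 0.00751 on 12 and 6 UMIs, a ratio of 46.0 [16.3 to 122] and 26.4 [5.48 to 111]. The limits over all cells, 0.382 to 0.505 and 0.206 to 0.363 in apEC, were above those of every other class in both libraries. mEC, the enterocyte class with middle midgut markers, had 0 UMIs of slif in 8 and 11 cells, which allows up to 0.387 and 0.271.

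The enterocyte and progenitor levels can be put on 1 scale as log2 differences after adding 0.1 per 10000 to both, averaged over the 2 libraries (± SD, n = 2). path was lower in enterocytes by 3.67 on that scale (log2 -3.67 ± 0.06), mnd stood at -1.38 ± 0.11 and JhI-21 at -1.18 ± 0.17. sut2 stood at 1.52 ± 0.83 and slif at 1.28 ± 0.37. Of the 6 members that reached 0.1 per 10000 in either group, 3 were lower in enterocytes by at least 1.5-fold in both libraries, where 28.4% of 5707 genes were, and 2 were higher, where 22.2% of genes were. With 6 members these counts do not set the transporters apart from genes at large. In enteroendocrine cells against progenitors, 1 of 6 was lower (path, -1.78 ± 0.35), where 9.02% of 5851 genes were, and 1 was higher (sut2, 1.58 ± 0.78), where 26.1% were. The median over all genes was -0.13 in enterocytes and 0.30 in enteroendocrine cells.

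**Figure D3:**
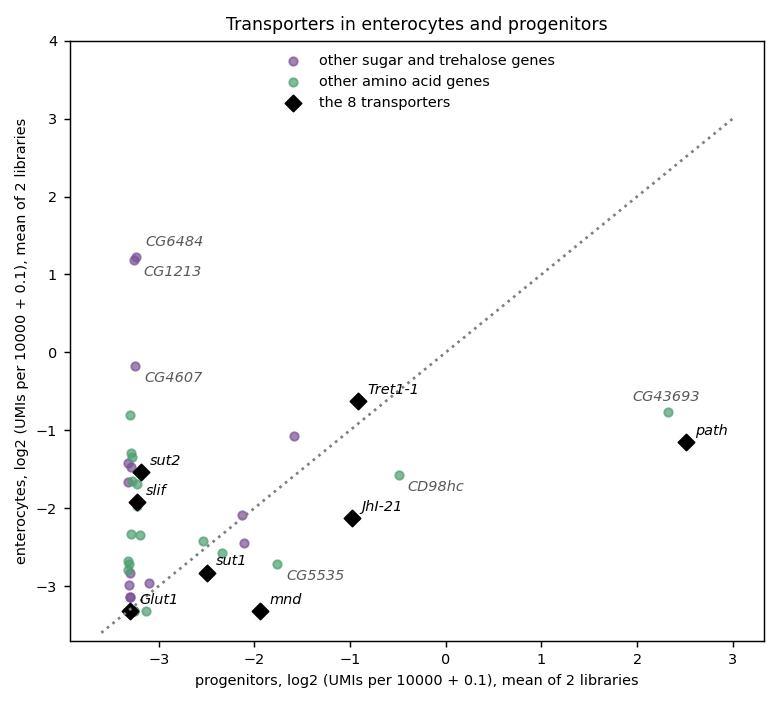
Level in progenitors (horizontal axis) against level in enterocytes (vertical axis), each as log2 of the mean UMIs per 10000 of the 2 libraries plus 0.1, for the 8 transporters (black diamonds) and for other sugar (purple) and amino acid (green) transport genes. The dotted line marks equal levels; path, mnd and JhI-21 lie below it with CG43693, CD98hc and CG5535, and sut2 and slif lie above it with CG6484, CG1213 and CG4607.

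Other transporter genes give the setting. Of 29 further genes of sugar and trehalose transport and metabolism, 16 were in the table and 9 reached the minimum level in enterocytes or progenitors; 0 of the 9 were lower in enterocytes by at least 1.5-fold in both libraries and 4 were higher, with a median log2 of 1.34. Of 33 further amino acid transport genes, 25 were in the table and 14 reached the minimum. Among the 14, 2 were lower and 7 were higher, with a median of 0.90. Over all genes 28.4% were lower in enterocytes and 22.2% higher, with a median of -0.13. These lists hold mainly carriers, but Treh and Tps1 are the enzymes that split and make trehalose and CD98hc is the heavy chain. By level, CG6484 stood at 2.30 and 2.16 in enterocytes against 0.00957 and 0.00250 in progenitors, and CG1213 at 1.80 and 2.55 against 0.00503 and 0.00375, log2 differences of 4.46 and 4.43. CG4607 stood at 3.05. At the other end CG43693 was at 0.470 and 0.503 in enterocytes against 4.29 and 5.54 in progenitors (log2 -3.08). CD98hc, the partner of the light chains, was at 0.235 and 0.237 in enterocytes against 0.558 and 0.664 in progenitors (log2 -1.08), while enteroendocrine cells had 1.09 and 0.942. CG5535 stood at -1.04, with -0.46 and -1.62 in the 2 libraries. In enteroendocrine cells 5 sugar genes were compared, of which 0 were lower and 3 higher (median 0.81), and 9 amino acid genes, of which 1 was lower and 6 higher (median 1.62). Over all genes 9.02% were lower there and 26.1% higher (median 0.30).

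Between the ages, differences were read from depth-corrected counts over all cells of a class, as the log2 ratio of day 3 to day 1 with 0.1 per 10000 added to each. Of the 80 pairs of a member and a class, 42 reached 0.1 per 10000 in at least 1 library. Among these, 8 were higher at day 3 by at least 1.5-fold and 2 were lower. Over all genes, 13.9% of such pairs passed that fold in either direction. By class the share of genes past it was 1.4% in ISC1, 2.81% in ISC2, 3.06% in EB1, 5.98% in EB2, 4.95% in EB3 and 4.28% in EC-like, against 24.3% in AstC+EE, 25.6% in Tk+EE, 27.6% in apEC and 37.7% in mEC. The small mature classes thus gave large differences for many genes, and each pair has to be read against its class. In ISC1, ISC2, EB1, EB3 and EC-like, 0 members passed.

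**Figure D4:**
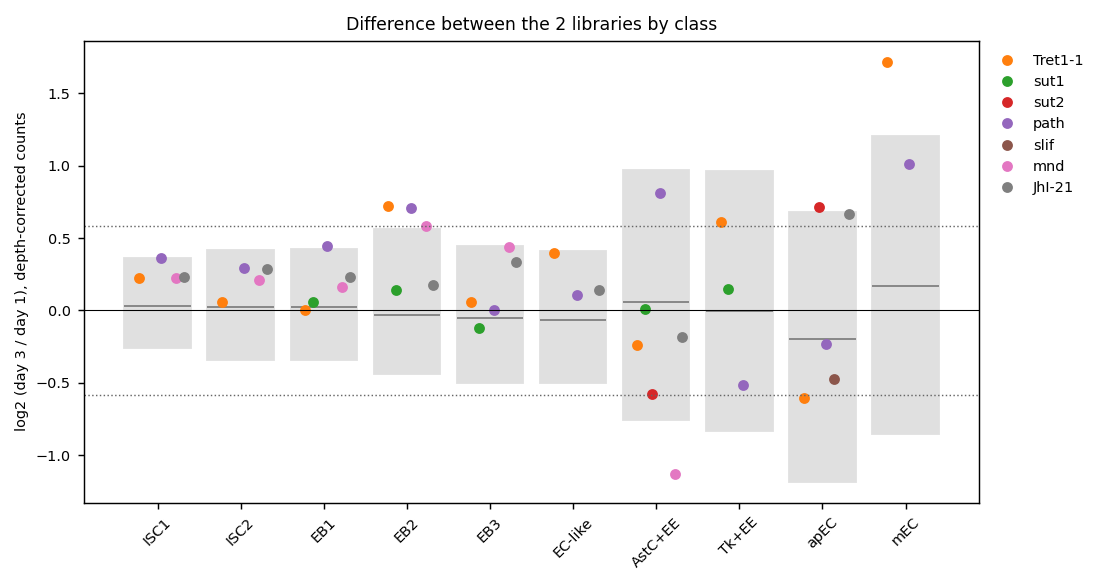
Log2 ratio of day 3 to day 1 in depth-corrected counts (vertical axis) for each transporter that reached 0.1 per 10000 in the class (horizontal axis; points coloured by gene). Grey boxes span the 5th to 95th percentile of all genes in that class with their median as a line, and dotted lines mark 1.5-fold; the 2 highest points are Tret1-1 at 1.72 and path at 1.01, both in mEC, and the lowest is mnd at -1.13 in AstC+EE.

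In EB2 both Tret1-1 (0.581 to 1.02, log2 0.72) and path (2.04 to 3.40, log2 0.71) were past the fold, where 4.52% of 4935 genes were higher at day 3. mnd in the same class had 0.119 and 0.228 (log2 0.58), just under the fold. The limits on UMIs over all EB2 cells also left the libraries apart for Tret1-1 and for path, but these limits carry no counting error. By rebuilt UMIs of 24 and 6 shallow cells, the Tret1-1 ratio of day 3 to day 1 was 1.89 [0.844 to 3.93]. That interval, on 27 and 11 UMIs, includes no difference. For path the ratio was 1.70 [1.17 to 2.45]. With the larger pseudocount of 1, Tret1-1 (log2 0.36) and path (log2 0.53) were under the fold. The 5 members compared in EB2 had a median of 0.58, against -0.03 over all genes there.

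path was higher at day 3 in each progenitor class by rebuilt UMIs. The ratio of day 3 to day 1 was 1.22 [1.14 to 1.30] in ISC1, 1.28 [1.21 to 1.35] in ISC2, 1.33 [1.25 to 1.43] in EB1, 1.70 [1.17 to 2.45] in EB2 and 1.32 [1.12 to 1.57] in EB3. In EC-like cells it was 1.14 [1.05 to 1.23]. By depth-corrected counts of all cells the log2 differences were 0.36, 0.29, 0.45, 0.71 and 0.00 for the 5 progenitor classes, so in EB3 the difference was seen in 37 and 12 shallow cells and not in all 74 and 91. The all-gene medians in these 5 classes lay between -0.05 and 0.03. These intervals hold the counting error of 2 libraries, not the spread between flies.

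In AstC+EE, path rose from 2.15 to 3.85 by depth-corrected counts (log2 0.81), in a class where 15.5% of 5342 genes were higher by at least 1.5-fold. By rebuilt UMIs the ratio was 2.56 [1.79 to 3.71], and the limits over all cells were 2.02 to 2.06 for day 1 and 3.66 to 3.69 for day 3. Some enteroendocrine markers also differed in this class between the libraries, in both directions. CCHa2 stood at 142 UMIs per 10000 at day 1 and 8.29 at day 3, CCHa1 at 20.69 and 16.28, and IA-2 at 34.19 and 29.63. Higher at day 3 were Orcokinin (25.96 and 50.91), 7B2 (14.09 and 22.97), nrv3 (6.26 and 12.985), pros (7.30 and 13.48), NPF (0.184 and 0.466) and Dh31 (0 and 6.43). So was Tk, the naming marker of Tk+EE, at 0 and 5.73. AstC stood at 227 and 228. Of the progenitor markers, esg stood at 2.15 and 4.10, klu at 0.399 and 0.832 and Dl at 4.05 and 4.83. N stood at 3.53 and 2.20, Sox21a at 0.798 and 0.433 and hdc at 6.11 and 6.23. Whether the make-up of the class differed between the libraries was not tested, nor was any part of it in the path difference. mnd fell there from 0.297 to 0.0816 (log2 -1.13), where 8.76% of genes were lower, with a UMI ratio of 0.296 [0.0530 to 1.12].

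The remaining pairs were in classes of at most 43 cells per library. Tret1-1 went from 0.529 to 0.861 in Tk+EE (log2 0.61), from 0.235 to 1.00 in mEC (log2 1.72) and from 0.284 to 0.153 in apEC (log2 -0.60). In apEC sut2 went from 0.135 to 0.286 (log2 0.71) and JhI-21 from 0.0329 to 0.111 (log2 0.67), and in mEC path went from 0.599 to 1.31 (log2 1.01). The backgrounds were 14.7% of genes higher in Tk+EE, 6.88% higher and 20.7% lower in apEC, and 25.7% higher in mEC. For Tret1-1 in apEC the 2 measures had opposite directions, since the rebuilt UMIs gave a ratio of 1.71 [0.435 to 7.09]; for path in mEC the UMI ratio was 1.17 [0.385 to 3.91]. Without the highest cell of each class and library, 4 of these pairs were under the fold: Tret1-1 in Tk+EE (0.48) and in apEC (-0.40), and sut2 (0.53) and JhI-21 (0.52) in apEC.

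Tret1-1 in EC-like cells stayed under the fold by depth-corrected counts (0.451 and 0.625, log2 0.40) and passed it by rebuilt UMIs, at 0.433 [0.374 to 0.498] and 0.752 [0.633 to 0.888], a ratio of 1.74 [1.39 to 2.17]. Without cluster 6 the levels were 0.445 and 0.752. JhI-21 had UMI ratios of 1.25 [1.05 to 1.49] in ISC1 and 1.25 [0.998 to 1.55] in ISC2, and mnd 1.09 [0.809 to 1.46] in ISC1.

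Of the other transporter genes between ages, the sugar list had 39 pairs of gene and class compared, of which 5 were higher at day 3, 5 lower, with a median log2 of 0.04; the amino acid list had 58, of which 8 were higher and 6 lower, with a median of 0.17. These counts stand beside 13.9% of pairs over all genes, and most of the calls lay in AstC+EE, apEC and mEC, where 24.3% to 37.7% of genes passed. The lowest differences were all in apEC, for Tps1 (log2 -2.91), CG7882 (-2.23) and NAAT1 (-1.71). For CG7882, 94.2% of the day 1 value came from 1 cell. The highest were CG13384 in AstC+EE (1.93), CG1139 in apEC (1.77) and CG4991 in AstC+EE (1.35).

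The genes most like each member were found by Pearson correlation of log2(level + 0.1) over the 20 class-by-library values, among 4989 genes. The points have 2 libraries and the annotated classes in common, so each r is a description. path was closest to sov (r = 0.970), zip, the non-muscle myosin heavy chain (0.969), and loco, a regulator of G protein signalling (0.949). JhI-21 was closest to vig2 (0.874), scra, the cytokinesis protein anillin (0.872), and babos (0.862), and mnd to CG9135 (0.919), Nup358, a nuclear pore protein (0.914), and baf (0.906). Tret1-1 was closest to LpR2, a lipophorin receptor (0.842), mEFTu2 (0.776) and Hip1 (0.724). slif was closest to Had1 (0.981), CG3699 (0.959) and CG31198 (0.956), sut2 to Try29F (0.905), the maltase Mal-A3 (0.898) and CG9396 (0.896), and sut1 to CG5003 (0.852), tra (0.828) and l(3)80Fg (0.768). Between members, slif and sut2 had r = 0.78, path and mnd 0.72, mnd and JhI-21 0.67, and path and JhI-21 0.56, whereas path and slif had -0.64, Tret1-1 and slif -0.60, Tret1-1 and sut2 -0.55 and path and sut2 -0.50.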

How the data were processed

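Midgut cells of 1 library per age were measured with 10x Genomics v3.1 chemistry, per the labels. The submitters' processing notes name Cell Ranger 6.0.1 and the build BDGP6; other steps were not given in the sources used here. The authors deposited, a table of natural log values, each the log of 1 plus a depth-corrected count; these corrected counts lay within 2.91e-11 of whole numbers and summed to the deposited score for the corrected total of each cell. Deposited counts gave the UMIs per cell. Seurat's SCTransform correction, per the file headers, can give a cell without a UMI a value above 0. It was inverted in Python 3.11.15 (numpy 2.4.6, scipy 1.17.1, numba 0.67.0) with 3 unknowns per gene, using the 2092 cells no deeper than the median. Of 9529 genes with a value there, 8829 had 0 cells off the fitted rule; among the members, Glut1 had 1 such cell and the others 0. Rebuilt totals were 0.950 to 1.03 times the deposited ones. In deeper cells several counts give the same value, so only limits were taken, over up to 20 equally good fits per gene.

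Library totals run from 58700717 to 86114751 UMIs. UMIs mark molecules, and the intervals and floors (3 counts) cover counting error only. Ratios of UMI sums have exact binomial 95% intervals; the class pairs for them were chosen after levels were seen. Shares used cells thinned to 4000 UMIs, with Clopper-Pearson intervals. Joined groups are progenitors (ISC1, ISC2, EB1, EB2, EB3), enteroendocrine cells (AstC+EE, Tk+EE) and enterocytes (apEC, mEC). The pseudocount was 0.1 per 10000, the minimum level 0.1, the fold 1.5 and the fewest cells per class and library 20. On simulated counts of 1504 genes compared between the ages in progenitors, 100% of gene and cell values were rebuilt. A log2 change of 1 was measured there as 0.83 upward and -0.77 downward, and 0 of 907 unchanged genes passed the fold. The deposited values and the single classes were not tested in this way.

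The members and lists were chosen with earlier results of these data known. Named genes beside the members are the 3 most different of the transporter lists in each direction, and the 3 most like each member (not given for Glut1, which was at the floor). Marker lists of visceral muscle, blood cells, trachea, fat body, and neurons and glia summed to at most 0.966 UMIs per 10000 in progenitors and enterocytes; neurons and glia summed to 3.07 and 4.59 in AstC+EE and to 3.38 and 4.89 in Tk+EE. All deposited cells carry the authors' class names, and no doublet caller was run. Alternatives were the pseudocount, the unit of the level, the weighting of cells, leaving out the highest cell, the minimum level, cluster 6 and thinning.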

Additional observations from a re-analysis of the deposited data

Results flagged for a closer look

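Tret1-1, the trehalose transporter, differed in sign between the ages when enterocytes were set against progenitors: the log2 difference was -0.70 at day 1 and 0.90 at day 3. It did so again for enteroendocrine cells against progenitors, with -0.33 and 0.34. By the limits over all cells that change of sign was not seen, since the enteroendocrine limits of 0.349 to 0.362 and 0.461 to 0.474 lay below the progenitor limits in both libraries. By depth-corrected counts of all cells it was seen, with 0.444 against 0.453 in progenitors at day 1 and 0.579 against 0.523 at day 3. For mnd the enteroendocrine difference was 0.44 at day 1 and -0.48 at day 3. With 1 library per age, none of these 3 differences between ages was tested. The Tret1-1 enterocyte value rests on 9 and 29 UMIs, of which 12 at day 3 came from 1 mEC cell, and over all cells the enterocyte limits of 0.177 to 0.359 and 0.360 to 0.561 lay below those of progenitors at day 1 (0.428 to 0.519) and overlapped them at day 3 (0.501 to 0.616). The mnd value rests on 12 and 6 enteroendocrine UMIs; over all cells its limits were 0.209 to 0.237 and 0.108 to 0.122, against 0.101 to 0.167 and 0.138 to 0.231 in progenitors.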

How the results depend on the processing

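The lowest and highest limits on UMIs over all cells were an alternative chosen after seeing the data. They gave enterocyte differences of -3.91 and -2.67 (path), -1.04 and -0.27 (mnd) and -1.55 and -0.67 (JhI-21). Enteroendocrine differences were -1.14 and -1.15 (path), with -0.17 for sut1 at the highest and -0.35 for JhI-21 at the lowest. No class difference past 1.5-fold changed direction under the alternatives run. Some under the fold did. In enterocytes Tret1-1 (0.098) went as low as -0.66. In enteroendocrine cells Tret1-1 (0.0038) went as low as -0.37, mnd (-0.019) as high as 0.21 and sut1 (0.34) as low as -0.17. Between ages, Tret1-1 in apEC (log2 -0.60) had the opposite direction by rebuilt UMIs, at a ratio of 1.71 from 21 and 16 cells. With a pseudocount of 1 per 10000 the enterocyte differences shrank to log2 0.29 (sut2), -2.29 (path), 0.21 (slif), -0.22 (mnd) and -0.32 (JhI-21), and the enteroendocrine ones to 0.061 (sut1), 0.30 (sut2), -1.36 (path) and -0.26 (JhI-21), since a larger pseudocount pulls low levels together. With depth-corrected counts of all cells the enterocyte values were -2.80 (path), -1.18 (mnd) and -1.44 (JhI-21), and that of path in enteroendocrine cells was -1.08. Without the highest cell, path stood at -3.99 and JhI-21 at -1.35 in enterocytes, and JhI-21 at -1.36 with a mean over cells. The class with the highest level was unchanged by depth-corrected counts for 3 of the 8 members (sut2, slif and JhI-21). Of the pairs between ages, 10 passed 1.5-fold, 2 with a pseudocount of 1, and 5 of the 25 that rebuilt UMIs could compare, where 3 had passed by depth-corrected counts. Without the highest cell 8 passed, of which sut1 in Tk+EE (0.71) and sut2 in AstC+EE (-0.74) had not passed before. The all-gene share went from 13.9% to 8.82% without a minimum level. At 4000 UMIs, 48 sets of member, class and library had at least 10% of cells with a UMI, and 87 at their own depth. Except where an alternative's construction shows it, the cause was not tested. No paired analysis was possible because each age has 1 library. Depth limits Glut1, slif and sut2 most, at 8, 39 and 75 UMIs, and, among classes, EB2 with 6 rebuilt cells at day 3 and mEC with 8 at day 1.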
